A study of Drosophila melanogaster with 12 samples.

Results

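The genes described here had their highest level in the *Drosophila* wing at 44 h after puparium formation (APF), the last timepoint of an RNAseq time course of wing metamorphosis. They were chosen by their measured values. A gene was taken when its mean level at 44 h APF was at least 20 CPM (the count of a gene scaled to a common total of reads on genes) and at least 8 times its mean at each of the other 5 timepoints, and when both libraries at 44 h APF lay above the other 10 libraries. Genes with symbols starting with Cpr or Twdl, which name cuticle protein families, were left out, and 4 Cpr genes would otherwise have qualified. The rule gave 47 genes of 15240, of which 46 code for proteins and 1, CR44096, is a long noncoding RNA. Because the rule used the difference between 44 h APF and the other timepoints, that difference is given as a description with no test, and only comparisons among the earlier timepoints were tested.

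Wings were sampled from wandering larvae of the third instar (L3, which the study places at -10 h APF although the sample titles read 0 h) and at 6, 18, 24, 36 and 44 h APF. Each timepoint had 2 replicates, 12 libraries in all, and 40 hand-dissected wings were used for each stage. All 6 groups carry the same genotype, w1118/y,w, hs-FLP; + ; +, in which FLP is a recombinase under a heat shock promoter, and by their labels the groups differ only in stage. Time and stage are the same variable here, and a whole wing was sequenced, so more cells of a type and more RNA per cell cannot be told apart.

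During pupal life the wing epithelium leaves the cell cycle, its cells grow a hair each, and then they secrete the adult cuticle from the apical surface. Cuticle is laid down in order, with a thin lipid-rich envelope first, a protein-rich epicuticle next and the chitin-containing procuticle last. Chitin synthases, chitin deacetylases and chitinases build and remodel the chitin, zona pellucida domain proteins hold the apical matrix to the cell, and tanning enzymes and Yellow proteins take part in hardening and colour. The steroid hormone ecdysone times these steps through its receptor and a cascade of transcription factors, among them Eip74EF.

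The libraries held between 1659208 (24 h replicate 2) and 6900002 (44 h replicate 2) reads on genes, and 3 counts, taken as the floor of detection, were worth 0.435 to 1.81 CPM. The 5 markers of wing epithelium were all detected and summed to 681 to 729 CPM at 44 h APF and 1016 to 1221 CPM at 36 h APF. Salivary gland glue genes summed to at most 5.17 CPM in any library, hemocyte markers to between 59.1 and 65.1 CPM at 44 h APF and neuron markers to between 641 and 658 CPM. Muscle markers stood apart, with 1128 CPM in 44 h replicate 1 and 2711 CPM in 44 h replicate 2. The libraries at 6, 18 and 24 h also differed within a timepoint in the genes described here, most of all at 24 h, and the values are given with each comparison.

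The 47 genes together took 12.1 and 12.6% of the reads on genes at 44 h APF, a mean of 12.3% ± 0.31 (SD, n = 2). The mean share before that was 0.0273% (L3), 0.251% (6 h), 0.111% (18 h), 0.0836% (24 h) and 0.297% (36 h). The 4 genes with the most reads, CG12017, Osi12, CG32354 and CG42331, took 9.32% at 44 h APF on their own. Mean levels at 44 h APF ran from 23.5 CPM for CG14626 to 39455 CPM for CG12017, with a median of 467 CPM. Of the 47 genes, 15 were over 1000 CPM and 12 were under 100 CPM. The level at the next highest timepoint was exceeded 8.11 to 214-fold, with a median of 15.3-fold, and 7 genes exceeded it over 100-fold.

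**Figure D1:**
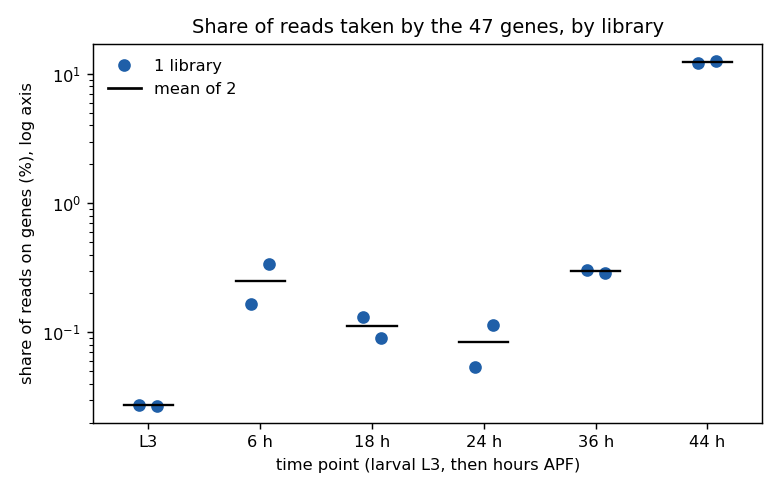
Share of reads on genes (%, log axis) taken by the 47 genes in each of the 12 libraries, by timepoint. Points are libraries and bars are means of 2. Both libraries at 44 h APF lie at 12.1 and 12.6%, and no other library exceeds 0.337%, the value of 6 h replicate 2.

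The next highest mean fell at 36 h APF in 22 of the 47 genes, at 6 h in 13, at 18 h in 8, and at 24 h or L3 in 2 each. From 6 h APF on most of the genes were above the floor, and 44 of them had more than 3 counts in at least 1 library at 36 h. The same held at 36 h for 8104 of the 8469 genes that passed the filter used for testing. At L3 it held for 7604 of these genes and for 21 of the 47. Genes with at most 3 counts in both libraries numbered 26 (L3), 12 (6 h), 6 (18 h), 6 (24 h), 3 (36 h) and 0 (44 h). Only CG13634 stayed at that floor in all of the other 5 timepoints. It had 25.1 and 34.1 CPM at 44 h APF, at least 16.3-fold higher than the floor allows before.

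**Figure D2:**
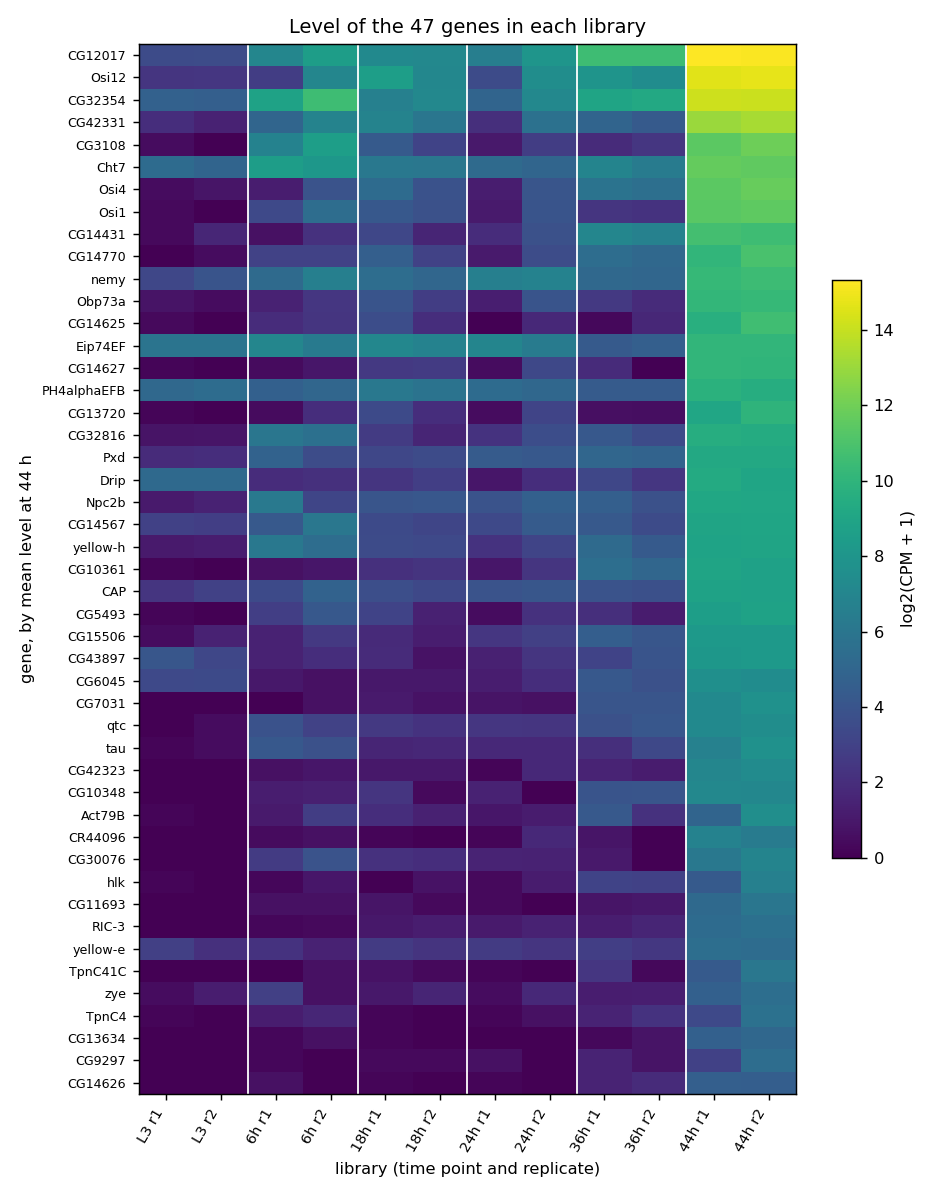
Level of each of the 47 genes, as log2(CPM + 1), in the 12 libraries, which run from L3 to 44 h with replicates r1 and r2 side by side. Genes are ordered by mean level at 44 h APF, from CG12017 (39455 CPM) to CG14626 (23.5 CPM). The columns at 44 h are the brightest of every row, as the rule requires, and a fainter signal at 6 h marks a subset of rows.

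Osiris genes encode an insect-specific family of small secreted or membrane proteins, most of them in a cluster on chromosome arm 3R and active in cells that make cuticle. Among them Osi1, Osi4 and Osi12 met the rule. In time order Osi12 had 4.13 and 4.31 CPM (L3), 5.84 and 130.9 CPM (6 h), 377 and 133 CPM (18 h), 10.3 and 183 CPM (24 h), 247 and 174 CPM (36 h), then 25755 and 28015 CPM (44 h). Its libraries at each of 6 and 24 h differed more, as a ratio, than those at 44 h. Osi1 had 2757 and 2880 CPM at 44 h APF, against 4.20 and 3.72 CPM at 36 h, and its next highest mean, 26.6 CPM, was at 6 h. Osi4 had 2843 and 3401 CPM at 44 h APF, against 56.5 and 47.6 CPM at 36 h. Per kb of annotated exon, Osi12 ranked 3 of 12471 genes at 44 h APF, with 15319 CPM per kb, Osi1 ranked 19 and Osi4 26.

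Other Osiris genes differed between the last timepoints in both directions. In the comparison of 44 h with 36 h APF, 10.3% of the 8469 genes tested were higher at 44 h and 9.27% lower at an adjusted p under 0.05 and 2-fold, with a median log2 difference of 0.07. The split was 875 genes higher and 785 lower, and with libraries scaled by size alone it was 605 higher and 1304 lower with a median of -0.25, a scaling chosen for this comparison after the data were seen. The rule used this comparison for the 47 genes, so their count is not read against these shares. Of the 19 other Osiris genes tested, 12 were higher, 2 were lower and 5 did not pass, with a median log2 difference of 2.09. Osi7 had 34418 and 36573 CPM at 44 h against 744 and 450 CPM at 36 h, a log2 difference of 6.23 ± 0.96 (SE, adjusted p = 0.000497). Osi22 went the other way, with 1599 and 1392 CPM at 44 h against 19949 and 14785 CPM at 36 h (log2 difference -3.20 ± 0.48, adjusted p = 0.000384). Osi7 and Osi22 were chosen after their values were seen.

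Several of the genes with the most reads have only a numbered name in the files. CG12017 had 10.3 and 10.8 CPM (L3), 128 and 371 CPM (6 h), 153 and 142 CPM (18 h), 91.8 and 255 CPM (24 h), 1501 and 1485 CPM (36 h), then 40947 and 37963 CPM (44 h). At 44 h it ranked 4 of all genes per kb, with 14794 CPM per kb. CG32354 reached 17875 and 17456 CPM at 44 h APF and ranked 10 per kb. CG42331 had 8380 and 9992 CPM at 44 h APF, against 29.4 and 19.3 CPM at 36 h. Its next highest mean was at 18 h, 102-fold lower than at 44 h. CG14770 ranked 22 per kb, with 1100 and 1977 CPM at 44 h APF against 43.9 and 34.9 CPM at 36 h. Of the 47 genes, 10 were among the 100 highest per kb at 44 h APF.

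Several of the largest ratios belonged to genes with at most 15.1 CPM in any library before 44 h APF. CG14627 had 1095 and 1049 CPM at 44 h APF and 2.63 and 0 CPM at 36 h, and it exceeded its next highest mean, at 18 h, 214-fold. CG14625 had 803 and 1568 CPM at 44 h and 0.263 and 2.23 CPM at 36 h, 165-fold over its mean at 18 h. CG13720 had 539 and 998 CPM at 44 h and 0.525 and 0.496 CPM at 36 h, with a ratio of 120 to its mean at 18 h. Obp73a, of the odorant-binding protein family of small secreted ligand carriers, had 1151 and 1244 CPM at 44 h and 4.73 and 2.73 CPM at 36 h, a ratio of 116 to its mean at 18 h. In CG42323 the levels were 128 and 164 CPM at 44 h and 1.84 and 1.24 CPM at 36 h. Of the 23 other odorant and taste genes tested, 3 were higher at 44 h than at 36 h, 2 were lower and 18 did not pass. One of those lower was Obp56a, chosen after its values were seen, with 76.0 and 80.0 CPM at 44 h against 793 and 620 CPM at 36 h.

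Chromosome arm 3R held 16 of the 47 genes, 3L 11, 2R 9, X 8, 2L 2 and the fourth chromosome 1. Of all genes in the files, 24.2% lie on 3R, 19.4% on 3L, 20.3% on 2R, 15.5% on X, 19.6% on 2L and 0.614% on the fourth. By gene order in the Release 6 annotation, CG14627 and CG14626 are next to each other on X and CG14625 lies within 5 genes of them. CG42331 and CG13634 lie within 5 genes of each other on 3R. At 44 h APF the mean level was 614 CPM per kb in CG14627, 460 in CG14625 and 16.6 in CG14626, which had 24.2 and 22.7 CPM at 44 h against 1.84 and 2.73 CPM at 36 h. Exons of 8 of the 47 genes overlap a gene on the opposite strand in the BDGP6 annotation. The overlap is 1166 bases in CG5493, 1027 in CG14431, 470 in qtc and 182 in yellow-h, and 11 to 61 bases in CG10348, CG32354, CG13634 and CG42331. The library kit was stranded but the strand setting of the counting is not given in the sources used here, so reads from an overlapping partner cannot be told apart in these genes.

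Cht7, a chitinase, was the only gene of the chitin list to meet the rule. It had 39.95 and 29.7 CPM (L3), 376 and 277 CPM (6 h), 69.0 and 67.4 CPM (18 h), 37.7 and 31.3 CPM (24 h), 121 and 81.5 CPM (36 h), then 3342 and 3034 CPM (44 h). Of the 24 other genes of chitin synthesis, modification and binding that were tested, 12 were higher at 44 h than at 36 h, 2 were lower and 10 did not pass, with a median log2 difference of 1.37. The genes below were chosen after their values were seen. knk, which organises chitin fibres, had 738 and 664 CPM at 44 h against 22.8 and 30.0 CPM at 36 h, a log2 difference of 5.04 ± 0.25 (SE, adjusted p = 1.49e-07). The chitin deacetylases serp and verm had log2 differences of 4.89 ± 0.53 and 4.10 ± 0.52 (adjusted p = 3.38e-05 and 0.000112), and the chitin synthase kkv one of 1.47 ± 0.30 (adjusted p = 0.00373). Cht5, another chitinase, was lower at 44 h, with 55.4 and 53.5 CPM against 197 and 181 CPM at 36 h (log2 difference -1.45 ± 0.41, adjusted p = 0.0200).

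Among the Yellow proteins, relatives of the melanin factor Yellow, yellow-h and yellow-e met the rule and were among the 3 genes closest to its 8-fold limit. yellow-h had 473 and 494 CPM at 44 h APF, 8.51 times its mean at 6 h. yellow-e had 45.1 and 42.0 CPM at 44 h APF and was nearly level before it, with mean levels between 2.74 and 5.37 CPM from L3 to 36 h. Of the 22 other tanning and pigment genes tested, 3 were higher at 44 h than at 36 h, 4 were lower and 15 did not pass. zye, a zona pellucida domain protein, had 25.1 and 46.1 CPM at 44 h APF against 1.31 and 1.49 CPM at 36 h. Of the 23 other genes tested from the list of zona pellucida and apical matrix proteins, 4 were higher at 44 h, 7 were lower and 12 did not pass, with a median log2 difference of -0.62. neo, one of those lower, had 56.9 and 86.2 CPM at 44 h against 2572 and 2284 CPM at 36 h (log2 difference -4.75 ± 0.40, adjusted p = 5.04e-06), and was chosen after its values were seen.

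Eip74EF, an ETS-domain transcription factor induced by ecdysone, was the only member of the ecdysone response list to meet the rule. Its levels were 57.3 and 57.7 CPM (L3), 128 and 78.4 CPM (6 h), 134 and 110.2 CPM (18 h), 122 and 81.4 CPM (24 h), 18.9 and 24.0 CPM (36 h), then 1080 and 1078 CPM (44 h). Its lowest mean of the time course was at 36 h, directly before 44 h, and the fall at 36 h against 24 h passed the test (log2 difference -1.87 ± 0.29, adjusted p = 0.000491). Eip74EF was 1 of the 2 genes among the 47 whose fall at 36 h passed the test. Of the 17 other transcription factors of the ecdysone response that were tested, 3 were higher at 44 h than at 36 h, 6 were lower and 8 did not pass. The 3 that rose were EcR, the ecdysone receptor, Eip75B and br. Eip75B, a nuclear receptor, had 883 and 925 CPM at 44 h and 251 and 348 CPM at 36 h, a log2 difference of 1.92 ± 0.46 (adjusted p = 0.00869). Eip93F was among the lower ones, with 105.1 and 105.4 CPM at 44 h against 959 and 1398 CPM at 36 h, and was chosen after its values were seen.

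Other genes of the 47 with known roles were picked singly, after their values were seen, and form no list. Drip, an aquaporin, had 651 and 524 CPM at 44 h APF, and its next highest libraries were those of L3, with 36.4 and 37.1 CPM. Npc2b, a sterol-binding protein of the Niemann-Pick C2 family, had 567 and 543 CPM at 44 h against 24.2 and 13.1 CPM at 36 h. PH4alphaEFB, a prolyl 4-hydroxylase subunit of the kind that modifies collagen, had 886 and 742 CPM at 44 h and between 19.8 and 68.2 CPM in the 10 other libraries. Pxd, a peroxidase, had 612 and 619 CPM at 44 h against 32.3 and 28.0 CPM at 36 h. nemy, a cytochrome b561 family protein, had 1207 and 1428 CPM at 44 h against 34.7 and 32.2 CPM at 36 h. The aldehyde oxidase CG6045, now named AOX3, and CG10361, now named Gcat for glycine C-acetyltransferase, had means of 186 and 467 CPM at 44 h. That both libraries at 44 h lay above every earlier library in each of these genes is a condition of the rule.

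The levels of 6 of the 47 genes differed at least 2-fold between the 2 libraries at 44 h APF, and all 6 were higher in replicate 2. This is 12.8% of the group, against 54 of the 3948 genes with at least 20 CPM at 44 h (1.37%). Act79B, a muscle actin, had 29.4 CPM in replicate 1 and 188 CPM in replicate 2. TpnC4 and TpnC41C, calcium-binding troponin C subunits of the muscle thin filament, had 9.46 and 19.1 CPM in replicate 1 and 52.2 and 66.7 CPM in replicate 2. CG9297 had 6.80 CPM in replicate 1 and 44.1 CPM in replicate 2, hlk, the current symbol of FBgn0010482, 19.3 and 99.4 CPM, and tau, a microtubule-binding protein, 104 and 215 CPM.

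Markers of muscle moved with these genes. Of the 14 muscle markers with at least 20 CPM at 44 h, TpnC4 and TpnC41C included, 11 differed at least 2-fold between the same libraries, and all 15 on the list were higher in replicate 2. Act88F, an actin of the indirect flight muscle, had 23.6 CPM in replicate 1 and 253 CPM in replicate 2, and none of the markers was at 0 at 44 h. The summed level of the list was 1128 and 2711 CPM at 44 h and 1581 and 1645 CPM at 36 h. Most of the sum at 36 h came from sls, with 1311 and 1235 CPM at 36 h and 533 and 584 CPM at 44 h. The sum at 36 h therefore follows sls more than the rest of the list. Between the libraries at 44 h sls differed 1.10-fold, the least of the 15 markers. Of the 13 muscle markers outside the 47 genes, 8 were higher at 44 h than at 36 h and 5 did not pass. The part of muscle tissue in the levels of these 6 genes was not tested. Without 44 h replicate 2 the rule gave 40 genes, and the 8 lost were these 6, CG30076 and zye. Without 44 h replicate 1 it gave 60, and among the 14 gained were the muscle genes Mhc, Tm2, Mlp60A and Unc-89, whose names were noted after the values were seen.

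**Figure D3:**
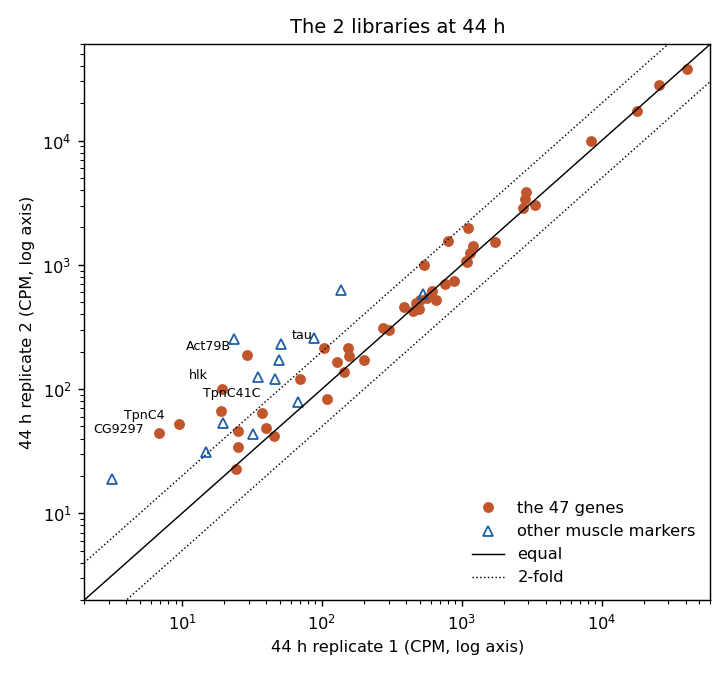
Level (CPM, log axes) at 44 h APF in replicate 1 and replicate 2 of the 47 genes (filled circles) and of the 13 muscle markers outside them (open triangles), with lines of equal level and of a 2-fold difference. The 6 named genes lie on or above the upper 2-fold line, from CG9297 (6.80 and 44.1 CPM) to tau (104 and 215 CPM), next to muscle markers such as Act88F (23.6 and 253 CPM). Most of the 47 genes lie near equality.

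The other 41 genes agreed within 2-fold between the libraries at 44 h APF, and over the 47 genes the median relative difference was 16.8%. Eip74EF differed least, by 0.232%. The rule required the lowest library at 44 h to exceed the highest of the earlier libraries. It did so by at least 1.62-fold in each of the 47 genes.

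The rule holds the 5 earlier timepoints of each gene to at most an eighth of its level at 44 h, but leaves their order free, and the levels before 44 h were compared in a single fit of all genes. All 47 genes passed the filter on low counts, which their level at 44 h is enough to meet. P-values rest on the spread between the 2 libraries of a timepoint, pooled over all timepoints in the fit, 44 h included, and moderated across genes. The 2 libraries of a timepoint are independent replicates by the account of the study.

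At 6 h APF 27 of the 47 genes (57.4%) were higher than at L3 and 3 were lower, where 18.1% of all genes tested were higher and 14.3% lower. With the 4 libraries of the comparison fitted alone, 32 of the 47 genes passed the filter, 21 higher and 3 lower, and of all 7612 genes 1297 were higher and 1049 lower. Scaling by library size alone gave 26 higher and 3 lower among the 47, and 1086 higher and 2536 lower among all genes, in place of 1529 and 1209. The median log2 difference was 2.27 over the 47 genes and 0.01 over all genes. CG32354 had 461 and 1514 CPM at 6 h against 25.7 and 24.1 CPM at L3 (log2 difference 5.84 ± 0.75, adjusted p = 7.28e-05). Cht7 had 376 and 277 CPM at 6 h against 39.95 and 29.7 CPM at L3 (log2 difference 3.77 ± 0.30, adjusted p = 2.1e-06). CG3108 had 112 and 389 CPM at 6 h against 0.442 and 0 CPM at L3, at least 194-fold higher at 6 h. The 3 genes that were lower at 6 h were Drip (log2 difference -2.86 ± 0.37), CG43897 (-1.81 ± 0.50) and CG6045 (-2.52 ± 0.35). Among the 27, CG42323 and CG11693 had at most 3 counts in all 4 libraries, so that their calls rest on counts at the floor. Of the 27 calls 17 held whichever of the 12 libraries was left out, and without L3 replicate 1 the calls in both directions numbered 20 in place of 30.

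The libraries at 6 h APF differed from each other, and the summed levels of some marker lists rose while those of others did not. Of the 35 genes above the floor at 6 h, 17 were at least 2-fold higher in replicate 2 and 4 (11.4%) in replicate 1, against 8.50 and 7.78% of all genes. Of all genes tested, 20.5% had both libraries at 6 h above both at L3, and 56.3% had both below. Fat body markers summed to 127 and 587 CPM at 6 h against 7.67 and 9.05 CPM at L3, with 6 of 9 higher in both libraries at 6 h, none at 0 at 6 h and Yp1 at 0 at L3. Markers of sensory organ support cells summed to 1069 and 2373 CPM at 6 h against 25.1 and 37.1 CPM at L3, with 4 of 5 higher. Most of this sum came from dyl, with 1038 and 2342 CPM at 6 h against 1.33 and 0.862 CPM at L3. The sum therefore follows this gene more than the cell type. Tracheal markers summed to 11340 and 3451 CPM at 6 h against 779 and 937 CPM at L3. Only verm, 1 of 5, was higher in both libraries at 6 h, with 10977.5 and 3336 CPM against 307 and 335 CPM. verm also stands in the chitin list. None of the sensory organ support or tracheal markers was at 0 at L3 or 6 h. Muscle markers summed to 180 and 228 CPM at 6 h against 132 and 116 CPM at L3, with 6 of 15 higher. Hemocyte markers summed to 89.7 and 93.1 against 75.5 and 84.5 CPM, with 2 of 6 higher. Neuron markers summed to 387 and 394 against 423 and 331 CPM, with 2 of 10 higher. Wing epithelium markers were lower, at 815 and 912 against 2002 and 1760 CPM. Salivary gland genes had 0.584 and 0.895 against 2.06 and 5.17 CPM. The part of other tissues in the rise was not tested, nor was the part of staging or carry-over in the difference between the libraries at 6 h.

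By 18 h APF 14 of the 47 genes had fallen from their level at 6 h and 1, CG10361, had risen, where 17.5% of all genes were lower at 18 h and 14.0% higher. With libraries scaled by size alone 10 of the 47 genes were lower and 4 higher, and among all genes 1002 were lower and 2240 higher in place of 1485 and 1185. With the 4 libraries fitted alone, 10 of 32 genes were lower and 1 higher. Of all 7704 genes in that fit, 1315 were lower and 1012 higher. This comparison uses the same libraries at 6 h as the one before, so the overlap of their calls is not given as a result. The 14 were CG3108, CG32354, Cht7, nemy, yellow-h, tau, qtc, Pxd, CAP, Npc2b, CG5493, CG14567, CG30076 and CG32816. CG3108 had 19.2 and 7.30 CPM at 18 h against 112 and 389 CPM at 6 h (log2 difference -4.63 ± 0.67, adjusted p = 0.000182). yellow-h had 10.1 and 9.62 CPM at 18 h against 69.3 and 44.4 CPM at 6 h (log2 difference -2.97 ± 0.37, adjusted p = 5.56e-05), and 1.18 and 1.29 CPM at L3. tau had 1.95 and 2.32 CPM at 18 h against 17.9 and 12.8 CPM at 6 h (log2 difference -3.11 ± 0.48, adjusted p = 0.000311), and 0.147 and 0.431 CPM at L3. For 8 of the 14 the fall passed whichever library was left out. The exceptions were CG5493, CAP, Pxd, Npc2b, nemy and CG30076. The call of Npc2b, with 15.3 and 16.9 CPM at 18 h against 72.2 and 8.05 CPM at 6 h, was lost in 11 of the 12 fits that left out a library, and its log2 difference reached 0.50, in the opposite direction, without 6 h replicate 1. Without 18 h replicate 2 the calls numbered 9 in place of 15, and without 18 h replicate 1 they numbered 10.

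**Figure D4:**
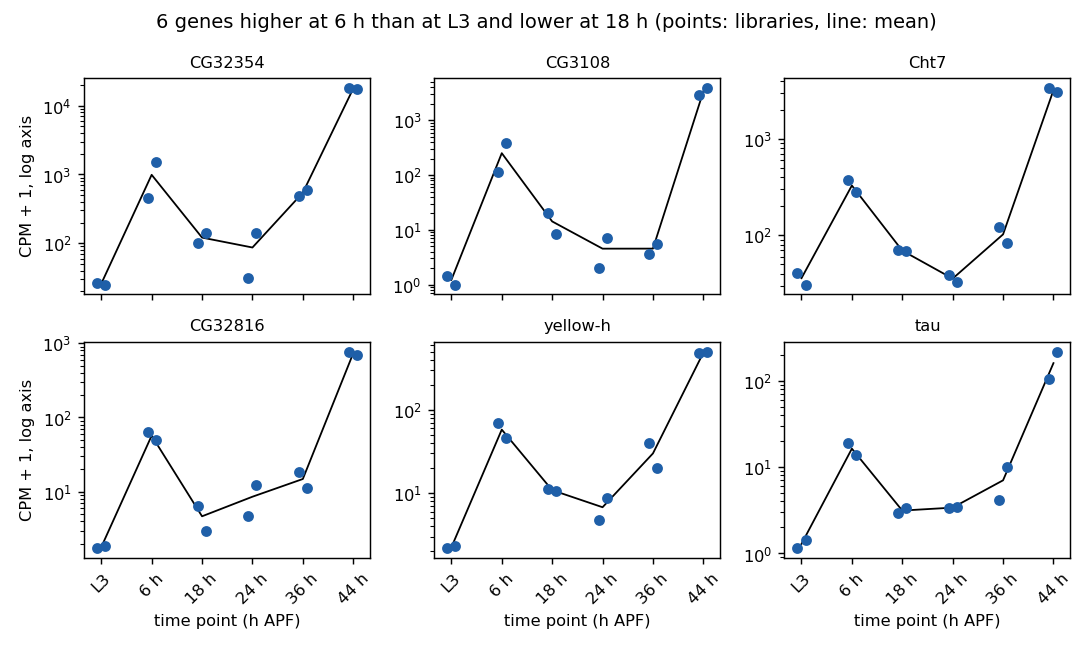
Level (CPM + 1, log axis) by timepoint of CG32354, CG3108, Cht7, CG32816, yellow-h and tau. Each passed the test as higher at 6 h than at L3 and as lower at 18 h than at 6 h. Both comparisons use the same libraries at 6 h, so the peak at 6 h is shown as a description. The genes were picked singly from the 14 that were lower at 18 h, and less steady ones such as Npc2b are not shown. Points are libraries and the line joins the means of 2. Each gene peaks at 6 h below its level at 44 h, for CG32354 at 461 and 1514 CPM against 17875 and 17456 CPM at 44 h.

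Between 18 and 24 h APF little passed the test. nemy was higher at 24 h, with 97.9 and 112 CPM against 44.0 and 31.9 CPM at 18 h (log2 difference 1.53 ± 0.36, adjusted p = 0.0163). CG14625 was lower, with 0 and 2.41 CPM at 24 h against 11.4 and 2.99 CPM at 18 h (log2 difference -2.89 ± 0.87, adjusted p = 0.0499). Among all genes 3.75% were higher at 24 h and 4.90% lower. The libraries at 24 h stood apart from each other in these genes. Of the 41 genes above the floor there, 24 were at least 2-fold higher in replicate 2, the shallowest library, and 2 were at least 2-fold higher in replicate 1, against 2.83 and 6.05% of all genes. Obp73a had 1.49 and 15.1 CPM in the libraries at 24 h and CG42331 3.13 and 51.8 CPM. At 18 h 13 of 41 were at least 2-fold higher in replicate 1, against 3.37% of all genes. The median level of the 47 genes was 4.68 CPM at 18 h and 4.14 CPM at 24 h, but not all of these differences lay at low counts. Osi12 had 2313 and 402 counts at 18 h and 69 and 304 counts at 24 h. The parts of low counts, of staging and of carry-over between libraries in these differences were not tested. Levels at 18 and 24 h, and ratios to them, carry this limit. Without 24 h replicate 2 11 genes passed the test between 24 and 18 h, 1 of them shared with the 2 above, and both calls were lost without any 1 of the other 3 libraries of the comparison. Without a library of another timepoint 1 to 6 genes passed.

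At 36 h APF 23 of the 47 genes (48.9%) were higher than at 24 h and 2 were lower, where 14.9% of all genes were higher and 10.2% lower. With the 4 libraries of the comparison fitted alone, 37 of the 47 genes passed the filter, 20 higher and 2 lower, and of all 7885 genes 1264 were higher and 814 lower. Scaling by library size alone gave 19 higher and 2 lower among the 47, and 965 higher and 1749 lower among all genes, in place of 1266 and 864. The median log2 difference was 1.22 over the 47 genes and -0.06 over all genes. CG12017 had 1501 and 1485 CPM at 36 h against 91.8 and 255 CPM at 24 h (log2 difference 3.49 ± 0.52, adjusted p = 0.00036). CG14431 had 130 and 104 CPM at 36 h against 2.83 and 12.7 CPM at 24 h (log2 difference 4.52 ± 0.70, adjusted p = 0.000447). CG10361 had 44.9 and 32.5 CPM at 36 h against 0.893 and 4.22 CPM at 24 h (log2 difference 4.50 ± 0.42, adjusted p = 1.04e-05). Osi4 rose too, with 56.5 and 47.6 CPM at 36 h against 1.34 and 15.7 CPM at 24 h (log2 difference 3.35 ± 0.94, adjusted p = 0.0157), while Osi12 had a log2 difference of 1.54 ± 1.16 that did not pass (adjusted p = 0.319). nemy, next to Eip74EF, was the other gene whose fall passed, with 34.7 and 32.2 CPM at 36 h against 97.9 and 112 CPM at 24 h. CG13634, among the 23, had at most 3 counts in all 4 libraries.

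Of the 47 genes, 9 passed none of the 4 comparisons before 44 h APF: CG13720, CG14627, CG9297, CR44096, Obp73a, PH4alphaEFB, RIC-3, TpnC41C and yellow-e. The share of all genes tested that passed none of the 4 was not counted, so these 9 are named only as a description. In 12 of the 23 the rise at 36 h passed whichever library was left out. Without 24 h replicate 1 the calls in both directions numbered 14 in place of 25. The calls of TpnC4, tau and Act79B at 36 h were lost without 10, 7 and 5 of the 12 libraries, each left out alone.

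**Figure D5:**
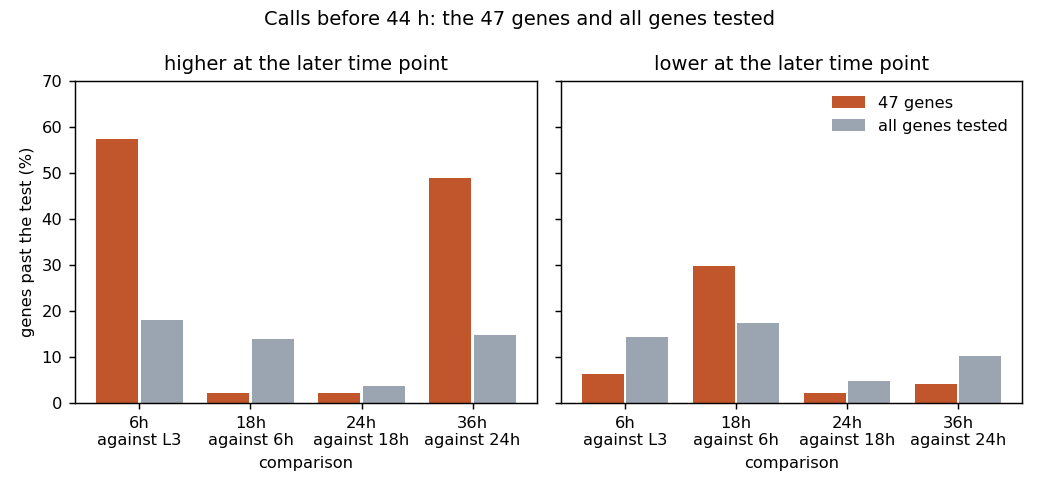
Percent of the 47 genes (left bar of each pair) and of all 8469 genes tested (right bar) that were higher (left panel) or lower (right panel) at the later timepoint, for the 4 comparisons before 44 h APF. The shares of the 47 genes are 57.4% higher at 6 h than at L3 and 48.9% higher at 36 h than at 24 h, and 29.8% lower at 18 h than at 6 h.

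At the edge of the rule the values ran on without a gap. Just inside the 8-fold limit were yellow-e (8.11), hlk (8.45) and yellow-h (8.51), and just outside it were Eip63F-1 (7.98), Tm2 (7.94) and CG42319 (7.82). Just inside the limit of 20 CPM were CG14626 (23.5 CPM), CG9297 (25.4 CPM) and CG13634 (29.6 CPM), and just outside it were CG9294 (19.3 CPM), CG33299 (14.1 CPM) and CG9406 (12.7 CPM). The 4 Cpr genes left out by name were Cpr76Bc, Cpr50Ca, Cpr49Ah and Cpr66Cb, of a family of chitin-binding cuticle proteins, with means of 15038, 791, 5331 and 199.98 CPM at 44 h APF.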

How the data were processed

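RNA was isolated from dissected wings and sequenced with a stranded mRNA kit. Per the labels and the study's methods, the authors aligned reads to dm3 with TopHat2 2.1.0 (SAMtools 1.2) and counted reads per gene with HTSeq 0.6.1, and the deposited counts are raw. Between 44.0 and 75.2% of the records of a library lay on lines that name no gene, and these lines did not enter library sizes. RPKM values, calculated by the authors with edgeR, were deposited as well. The gene lengths these imply have a Spearman correlation of 0.01 with annotated exon lengths over 12471 genes, so RPKM values served only for ratios between libraries, and levels per kb use exon lengths of the BDGP6 annotation. No sample matches 2 other columns of that table, which were set aside.

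Levels are CPM over gene lines. Tests used edgeR 4.0.16 in R 4.3.3 (quasi-likelihood, TMM, all 12 libraries in one fit with a mean per timepoint) on the 8469 genes with log2 CPM over 2 in at least 1 library, with Benjamini-Hochberg adjustment. A gene passed at an adjusted p under 0.05 and a 2-fold change. Fitted log2 differences are scaled by TMM and use a prior count of 2, while CPM values are not scaled. Where neither library of a timepoint exceeded 3 counts, folds are bounds against a floor of 3 counts, the larger of the 2 libraries' floors. Counting error alone is covered by the floor. On simulated counts for the comparison of 36 h with 24 h (8003 genes), 175 of 191 changed genes were recovered and 4 of 7812 unchanged genes were called.

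The 47 genes and the gene lists were chosen with earlier results of these data known. Genes named are, among the 47, up to 4 per list, the 8 highest by CPM, by CPM per kb and by ratio, up to 4 per comparison and direction, the 3 on either side of each limit, the 3 with the largest difference between the libraries at 44 h and runs of 3 or more neighbouring genes (0 found), and others are marked where they appear or belong to a full count. Alternatives were another normalization (size factors of DESeq2 1.42.0, library size alone), other filters, DESeq2, the 4 libraries of a comparison alone, the replicate block and leaving out each library. Symbols are those of the files, except hlk (FBgn0010482), given by its current symbol. No genome sequence was used here.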

Additional observations from a re-analysis of the deposited data

How the results depend on the processing

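The number of genes meeting the rule, 47, became 72 with library sizes over all lines of the count tables, 72 with the deposited RPKM values, 99 at a 4-fold limit and 22 at a 16-fold limit, with all 47 included in the first 3 of these settings. Leaving out 1 library gave 40 to 60. The share of reads at 44 h, 12.3%, was 5.77% over all lines, and 12.1 and 12.6% without 1 of the 2 libraries. The count past the test between 36 and 24 h, 25, lay between 14 and 25 with 1 library left out. Between 24 and 18 h the count, 2, was 13 when all genes with at least 1 count were tested, 7 with the 4 libraries of the comparison alone, and 0 to 11 with 1 library left out. Between 18 and 6 h the count, 15, was 25 when all genes with at least 1 count were tested and 9 to 17 with 1 library left out. Between 6 h and L3 the count, 30, lay between 20 and 32 with 1 library left out, and was 37 when all genes with at least 1 count were tested and 34 with DESeq2. The cause was not tested. Counts over all genes changed with these settings too. Of the 12660 genes with at least 1 count, 423 were higher at 24 h than at 18 h and 510 lower. At 18 h against 6 h 1258 were higher and 1609 lower, and at 6 h against L3 1671 and 1256. With the 4 libraries of the comparison alone, 356 of 7595 genes were higher at 24 h than at 18 h and 481 lower. DESeq2 gave 1549 higher and 1110 lower at 6 h against L3. With the replicate block the counts among the 47 genes were 24, 2, 14 and 31, from 36 h against 24 h to 6 h against L3. The labels number the replicates without saying that a number pairs libraries, and deviations of equally numbered libraries correlated between -0.16 and 0.20 across genes, so the block was not used. With library size alone TpnC4 no longer passed between 36 and 24 h (log2 difference 2.24), and the median of all genes tested shifted to -0.25, -0.41, -0.04, 0.47 and -0.50 from the latest comparison (44 h with 36 h) to the earliest. For the 18 genes whose log2 difference between 36 and 24 h was recomputed with library size alone and with a prior count of 0.5, the direction held in all.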
